A study of Mus musculus with 9 samples.

Results

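Water, urea and ion transport genes of the lateral nasal gland were compared between Cyp2g1-null mice and wild-type mice of their 2 background strains. The genes were Aqp1, Aqp3, Aqp4, Aqp5, Slc12a2, Kcnn4, Slc14a1, Atp1b1 and Slc4a4. They were taken by symbol: every probe set whose only gene in the platform annotation was one of these 9 genes was included and kept separate, which takes 9 of the 12393 genes that the array reads in this way. This gave 23 probe sets among the 22626 that are not controls. A signal above the array median on at least 2 arrays was found at 16 of the 23 (8 of the 9 genes), and these 16 were tested.

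All mice were male and 2 to 3 months old, and each array held RNA of glands pooled from 10 mice. The 129/Sv group (2 arrays) and the B6 group (4 arrays, strain given as C57BL/6) were wild type. The Cyp2g1-null group (3 arrays) lacked Cyp2g1, the gene of a nasal cytochrome P450, and was on a mixed 129/Sv and C57BL/6 background. Any difference between the null glands and 1 strain can therefore hold strain alleles as well as the deletion, which cannot be told apart here. As a check of the labels, Cyp2g1 had signals of 207.5 and 981.2 on the 129/Sv arrays, 5916.8, 748.2, 2006.9 and 2799.4 on the B6 arrays and 55.7, 140.6 and 201.1 on the null arrays, lower on every null array than on any wild-type array. By limma the log2 fold change was -4.07 against B6 (adjusted p = 0.00268) and -1.81 against 129/Sv (adjusted p = 0.325). The lower 129/Sv signal was under its array median and close above null array 3, so the check is weak for 129/Sv. The sources used here do not state how the allele was made or whether this probe set lies in the deleted part. The labels give no scan date or batch, and whether pools of a group came from separate litters or days is unknown, so the p-values measure only the spread between these pools.

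The lateral nasal gland is a large serous gland that secretes onto the nasal mucosa. In serous acinar cells, the sodium pump keeps cell sodium low, the basolateral cotransporter encoded by Slc12a2 loads chloride, and calcium-gated potassium channels such as Kcnn4 keep the cell negative while chloride leaves at the apical side. Water follows through aquaporins, chiefly Aqp5 at the apical membrane. Slc14a1 is a facilitative urea transporter, best known from red blood cells and the descending vessels of the renal medulla.

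Sequences upstream of 3 genes are given because their signals make a contrast on these arrays: Kcnn4 and Atp1b1 varied together from array to array, and Aqp5 stayed nearly level. They are 250 bases before the annotated start in RefSeq (GRCm38.p6), 5′ to 3′ on the gene's strand, at chr7:24370013-24370262 for Kcnn4 (plus strand), chr1:164458356-164458605 for Atp1b1 (minus strand) and chr15:99590778-99591027 for Aqp5 (plus strand). Capitals mark matches on either strand to the E-box CACGTG, the CCAAT box CCAAT or the GC box GGGCGG.
Kcnn4: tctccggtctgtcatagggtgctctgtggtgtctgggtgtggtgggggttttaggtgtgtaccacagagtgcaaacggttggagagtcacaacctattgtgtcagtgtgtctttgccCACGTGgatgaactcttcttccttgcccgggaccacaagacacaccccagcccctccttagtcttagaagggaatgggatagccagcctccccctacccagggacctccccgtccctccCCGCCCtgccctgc
Atp1b1: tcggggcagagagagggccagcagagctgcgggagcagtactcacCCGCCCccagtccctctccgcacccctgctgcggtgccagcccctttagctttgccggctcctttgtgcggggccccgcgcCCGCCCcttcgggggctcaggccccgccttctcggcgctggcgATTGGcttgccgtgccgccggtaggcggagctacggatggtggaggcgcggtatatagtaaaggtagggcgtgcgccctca
Aqp5: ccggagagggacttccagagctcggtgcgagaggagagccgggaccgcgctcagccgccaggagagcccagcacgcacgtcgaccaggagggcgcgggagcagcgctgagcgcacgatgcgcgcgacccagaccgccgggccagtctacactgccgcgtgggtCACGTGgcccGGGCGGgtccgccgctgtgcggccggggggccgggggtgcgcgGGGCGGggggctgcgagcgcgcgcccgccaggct

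An E-box stood 133 bases before the start of Kcnn4 and 87 bases before that of Aqp5, and it was present in 6.02% of the 32851 promoters searched in windows of the same length. A CCAAT box stood 81 bases before the start of Atp1b1, and 33.8% of promoters held one. All 3 windows held a GC box, as did 32.7% of promoters. A TATA box (TATAAA, 12.4% of promoters) and the cyclic AMP element (TGACGTCA, 1.55%) were also searched on both strands and were not among the letters of these 3 windows. None of these motifs overlapped another in the 3 windows. A promoter entry was found for 6 of the 9 genes. Of the motifs searched, Kcnn4 and Aqp5 shared the E-box and the GC box.

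The urea transporter Slc14a1 gave the largest differences among the transport genes. It was high in 129/Sv and null glands and low in B6 glands at both of its probe sets. At 1428114_at the signals, in arbitrary intensity units, were 3150.1 and 3367.6 on the 129/Sv arrays, 115.0, 32.7, 19.0 and 154.0 on the B6 arrays and 2485.2, 3408.3 and 2908.8 on the null arrays. At 1448640_at they were 2408.8 and 2404.8 on the 129/Sv arrays, 57.7, 45.6, 294.6 and 238.2 on the B6 arrays and 2360.1, 2679.1 and 2164.7 on the null arrays. All 4 B6 arrays lay below the other 5 at both probe sets, and the null arrays reached below and above the 129/Sv values at both. The B6 signals were under their array medians, so the probe sets passed the signal filter through the 129/Sv and null arrays, and the size of the fold is uncertain. Differences are on the log2(signal + 16) scale, which understates the change of weak signals.

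Slc14a1 was lower in B6 than in 129/Sv by a log2 fold change of -5.38 (SE 0.502, adjusted p = 1.29e-05) at 1428114_at and of -4.14 (SE 0.528, adjusted p = 0.000233) at 1448640_at. Null against B6 gave 5.22 (SE 0.443, adjusted p = 1.91e-05) and 4.13 (SE 0.466, adjusted p = 0.000243). Both comparisons use the same B6 arrays. Each passed in all 22 and 23 other settings that held the probe set, without the signal filter included, and the highest adjusted p was 0.00794. Null against 129/Sv gave -0.16 (95% interval -1.3 to 0.98, adjusted p = 0.951) and -0.01 (95% interval -1.21 to 1.19, adjusted p = 0.998). The spread behind these intervals is shared by the 3 groups, the weak and variable B6 signals included.

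Red blood cells also carry Slc14a1. Of 5 erythroid markers on the array, 4 were below the median on every array (Epb42, Hba-a1, Hbb-b2 and Slc4a1). The summed signal of the list ran from 1028 to 1310 in 129/Sv, from 605.9 to 1848 in B6 and from 1018 to 1460 in null glands, so the groups overlapped. In whole glands, fewer cells of a type and less RNA per cell cannot be told apart.

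**Figure D1:**
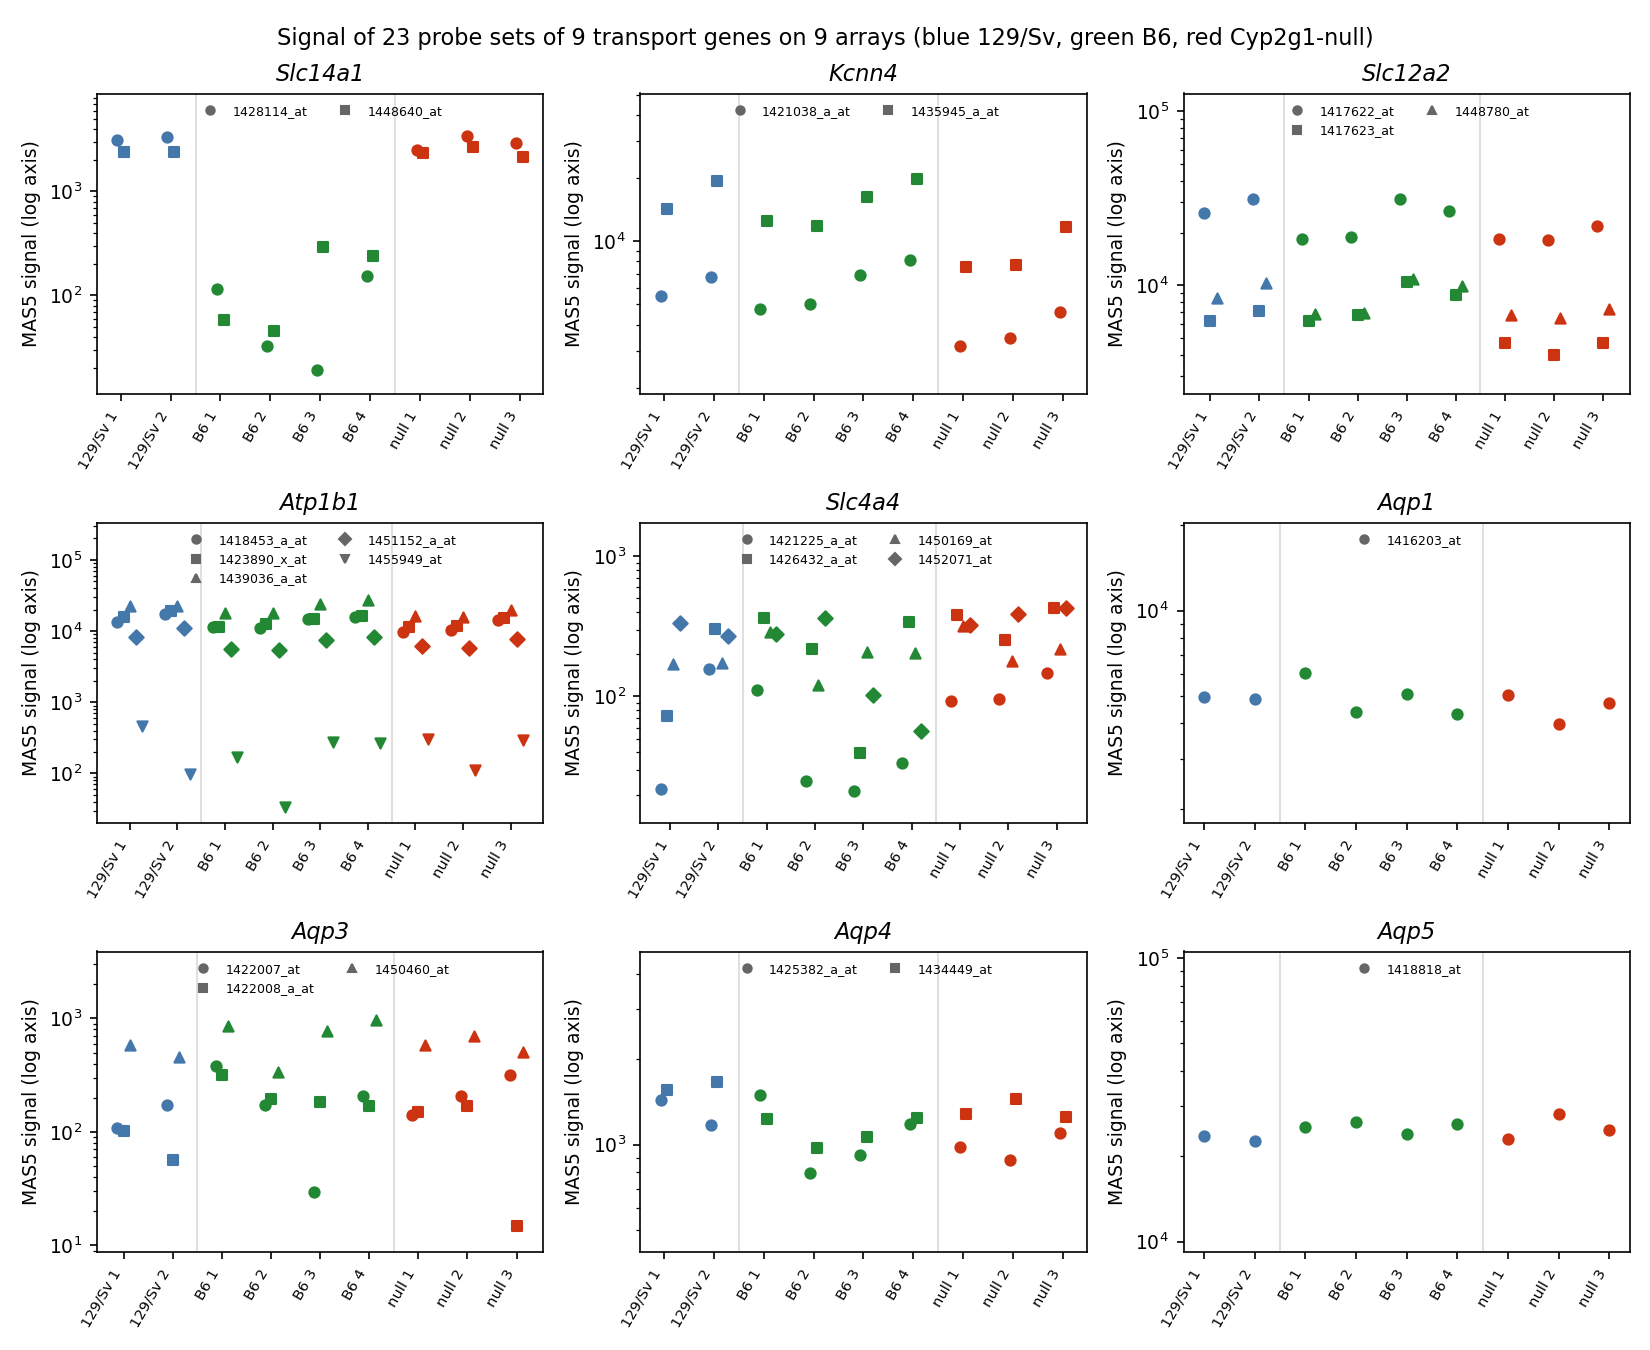
MAS5 signal (arbitrary units, log axis with its own range in each panel) of all 23 probe sets of the 9 genes, by array, with 1 point per array and a marker shape per probe set; blue is 129/Sv (2 arrays), green B6 (4) and red Cyp2g1-null (3). Both Slc14a1 probe sets are low on all 4 B6 arrays, whereas Aqp5 lies between 22669.4 and 28079.5 on all 9 arrays.

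Kcnn4 encodes the intermediate-conductance calcium-activated potassium channel. Its signals were lower in the null glands than in either strain at both probe sets. At 1435945_a_at they were 14292.1 and 19267.5 on the 129/Sv arrays, 12427.4, 11753.9, 16235.3 and 19727.3 on the B6 arrays and 7515.3, 7676.1 and 11636.3 on the null arrays. At 1421038_a_at they were 5479.0 and 6722.0 on the 129/Sv arrays, 4720.5, 5004.5, 6861.0 and 8138.4 on the B6 arrays and 3143.8, 3460.1 and 4600.4 on the null arrays. All 3 null arrays lay below all 6 wild-type arrays at both probe sets, with null array 3 close under the lowest B6 arrays.

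The test placed Kcnn4 at the edge of the threshold. The mean signal at 1435945_a_at was 8943 ± 2334 (SD, n = 3) on the null arrays, 15040 ± 3698 (SD, n = 4) on the B6 arrays and 16780 ± 3518 (SD, n = 2) on the 129/Sv arrays. Null glands differed from B6 by a log2 fold change of -0.75 (SE 0.188, adjusted p = 0.0564), from 129/Sv by -0.92 (SE 0.225, adjusted p = 0.0528) and from the mean of both strains by -0.83 (SE 0.178, adjusted p = 0.0385), and only the last passed. With each gene held by 1 probe set and fewer tests to adjust over, it passed against B6 (adjusted p = 0.0488) and against 129/Sv (adjusted p = 0.0493). In all, it passed in 7 of 23 other settings against B6, 11 of 23 against 129/Sv and 15 of 23 against the mean. At 1421038_a_at the log2 fold changes were -0.71, -0.72 and -0.71 (adjusted p = 0.0636, 0.14 and 0.0656), and none passed. The call against the mean at 1435945_a_at was lost without 129/Sv array 2 (adjusted p = 0.149), B6 array 3 (0.0687), null array 1 (0.207) or null array 2 (0.2), and with no filter (0.0593), no trend (0.167) or the wild-type arrays as 1 group (0.214). That call was also lost without B6 arrays 3 and 4 (adjusted p = 0.0683). B6 and 129/Sv differed by -0.17 (95% interval -0.63 to 0.28) at this probe set. Kcnn4 lies on chromosome 7, as Cyp2g1 does, with 66 of the 2030 protein-coding genes of that chromosome between them in the RefSeq order.

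Slc12a2 encodes the basolateral sodium-potassium-chloride cotransporter. All 3 of its probe sets had lower means in the null glands than in either strain, and 1 of them, 1417623_at, passed against B6 and against the mean of both strains. At 1417623_at the signals were 6263.4 and 7120.2 on the 129/Sv arrays, 6267.3, 6754.8, 10505.1 and 8837.3 on the B6 arrays and 4656.3, 3999.4 and 4672.1 on the null arrays, so the 3 null arrays were the lowest of the 9. Null glands differed from B6 by a log2 fold change of -0.83 (SE 0.154, adjusted p = 0.00963), from 129/Sv by -0.59 (SE 0.184, adjusted p = 0.151) and from the mean of both strains by -0.71 (SE 0.145, adjusted p = 0.0313). Against B6 the call held in 19 of 22 other settings. It was lost without null array 2 (adjusted p = 0.0655), without B6 arrays 3 and 4 (0.0531) and with no trend (0.0736). With no trend (adjusted p = 0.141) or the wild-type arrays as 1 group (0.2), the call against the mean was lost too. Against the mean it held in 15 of 22, and was lost on leaving out 129/Sv array 1 (adjusted p = 0.0529), 129/Sv array 2 (0.117), null array 1 (0.112), null array 2 (0.167) or null array 3 (0.099).

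The other 2 probe sets of Slc12a2 did not pass. At 1417622_at the signals were 25924.1 and 31245.8 on the 129/Sv arrays, 18343.2, 18965.3, 31212.5 and 26618.9 on the B6 arrays and 18424.8, 18110.8 and 21897.7 on the null arrays. At 1448780_at they were 8449.1 and 10245.6 on the 129/Sv arrays, 6818.3, 6957.4, 10887.6 and 9946.2 on the B6 arrays and 6749.7, 6510.9 and 7336.2 on the null arrays. The null arrays lay below both 129/Sv arrays at each, but overlapped B6 arrays 1 and 2. Log2 fold changes against B6 were -0.26 (95% interval -0.6 to 0.09, adjusted p = 0.502) and -0.30 (95% interval -0.63 to 0.03, adjusted p = 0.392). Against 129/Sv they were -0.55 (95% interval -0.97 to -0.14, adjusted p = 0.214) and -0.44 (95% interval -0.83 to -0.04, adjusted p = 0.339). All 3 probe sets of the gene were thus negative against both strains, and differences between the probe sets were not tested.

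Atp1b1 encodes the beta subunit of the sodium pump, needed for its assembly and its delivery to the membrane. Its 4 tested probe sets showed no difference that passed. At 1418453_a_at the signals were 13379.1 and 17210.2 on the 129/Sv arrays, 11465.7, 10981.7, 14574.9 and 15845.4 on the B6 arrays and 9591.0, 10385.9 and 14146.4 on the null arrays. At 1439036_a_at they were 22615.4 and 22184.1 on the 129/Sv arrays, 18199.0, 18230.0, 23827.9 and 27595.9 on the B6 arrays and 16231.1, 15904.9 and 19784.4 on the null arrays. At 1423890_x_at they were 15545.3 and 19412.4 on the 129/Sv arrays, 11435.0, 12507.5, 14925.8 and 16209.6 on the B6 arrays and 11256.1, 11821.8 and 15128.1 on the null arrays. Null array 3 lay inside the B6 range at all 3 of these probe sets. At 1451152_a_at the signals were 8125.6 and 10935.3 on the 129/Sv arrays, 5523.4, 5362.2, 7523.6 and 8374.6 on the B6 arrays and 6108.0, 5727.8 and 7747.1 on the null arrays, all 3 of which lay inside the B6 range and below both 129/Sv arrays. Over the 4 probe sets the log2 fold changes ran from -0.33 (1439036_a_at) to -0.02 (1451152_a_at) against B6 and from -0.54 (1451152_a_at) to -0.38 (1439036_a_at) against 129/Sv, and the lowest adjusted p was 0.287 against B6 and 0.221 against 129/Sv. The fifth probe set, 1455949_at, ran from 33.8 to 460.7 and was below the median on every array.

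Slc4a4 encodes a sodium bicarbonate cotransporter that loads bicarbonate into secretory epithelia. All 4 of its probe sets were below the median on every array, so none was tested. Over the 9 arrays signals ran from 21.1 to 156.8 at 1421225_a_at and from 39.5 to 424.7 at 1426432_a_at. They ran from 121.6 to 319.4 at 1450169_at and from 57.1 to 428.9 at 1452071_at. No detection calls were used here, so these weak signals are not read as presence or absence.

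The 4 aquaporins showed no difference between the null glands and either strain that passed, at 5 tested probe sets. Aqp5, the apical water channel of serous acini, had signals of 23597.3 and 22669.4 on the 129/Sv arrays, 25431.4, 26321.7, 23883.3 and 25875.0 on the B6 arrays and 22979.5, 28079.5 and 24767.0 on the null arrays. The null arrays overlapped both strains, and the 2 129/Sv arrays lay just below the 4 B6 arrays, with a log2 fold change of B6 against 129/Sv of 0.13 (95% interval -0.07 to 0.33, adjusted p = 0.525). Null glands gave a log2 fold change of -0.01 against B6 (95% interval -0.19 to 0.17) and 0.12 against 129/Sv (95% interval -0.09 to 0.34).

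Aqp1, a water channel of endothelium and red blood cells, had signals of 4967.5 and 4884.5 on the 129/Sv arrays, 6020.0, 4393.1, 5095.4 and 4334.7 on the B6 arrays and 5031.3, 3978.9 and 4703.6 on the null arrays. The groups overlapped, and the log2 fold change was -0.11 against either strain (95% intervals -0.38 to 0.16 against B6 and -0.44 to 0.21 against 129/Sv). The summed endothelial markers ran from 6078 to 6500 in 129/Sv, from 8873 to 9384 in B6 and from 7129 to 8494 in null glands, with 7 of 10 tested and Cdh5, Tek and Tie1 below the median on every array. The B6 sums were the highest, whereas Aqp1 differed between B6 and 129/Sv by -0.003 (95% interval -0.31 to 0.3).

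Aqp4, a basolateral water channel of epithelia that is also abundant in glia, was read by 2 probe sets. At 1434449_at the signals were 1556.9 and 1663.0 on the 129/Sv arrays, 1230.2, 972.8, 1065.1 and 1244.4 on the B6 arrays and 1287.5, 1447.7 and 1252.9 on the null arrays. All B6 arrays lay below the other 5, and B6 against 129/Sv gave -0.51 (SE 0.155, adjusted p = 0.078), which did not pass. At 1425382_a_at they were 1441.2 and 1174.4 on the 129/Sv arrays, 1496.9, 794.6, 923.5 and 1181.1 on the B6 arrays and 978.7, 886.3 and 1098.6 on the null arrays, and the strains overlapped. Null against B6 was 0.24 at the first and -0.12 at the second (adjusted p = 0.454 and 0.838). The null arrays lay below both 129/Sv arrays at each probe set. Null against 129/Sv was -0.275 and -0.397 (adjusted p = 0.571 and 0.581), which did not pass. Summed glial markers overlapped between the groups, at 9246 to 9543 in 129/Sv, 8701 to 9914 in B6 and 9240 to 9863 in null glands. Sox10 made up most of these sums, with means of 7337, 7371 and 7376 in the same order. The sums thus mainly follow 1 gene and are not read as a measure of glia. Gfap, S100b and Fabp7, 3 of the 6 on the array, were below the median on every array.

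Aqp3, a basolateral channel for water and glycerol, was tested at 1450460_at, which exceeded the median on 6 of 9 arrays. Its signals were 586.8 and 454.2 on the 129/Sv arrays, 852.7, 340.2, 777.9 and 959.9 on the B6 arrays and 584.4, 701.7 and 508.3 on the null arrays. The B6 arrays spanned the range of both other groups, and the log2 fold change against B6 was -0.20 (95% interval -0.87 to 0.47). The other 2 Aqp3 probe sets were below the median on every array, at 29.7 to 382.1 (1422007_at) and 14.7 to 314.0 (1422008_a_at).

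**Figure D2:**
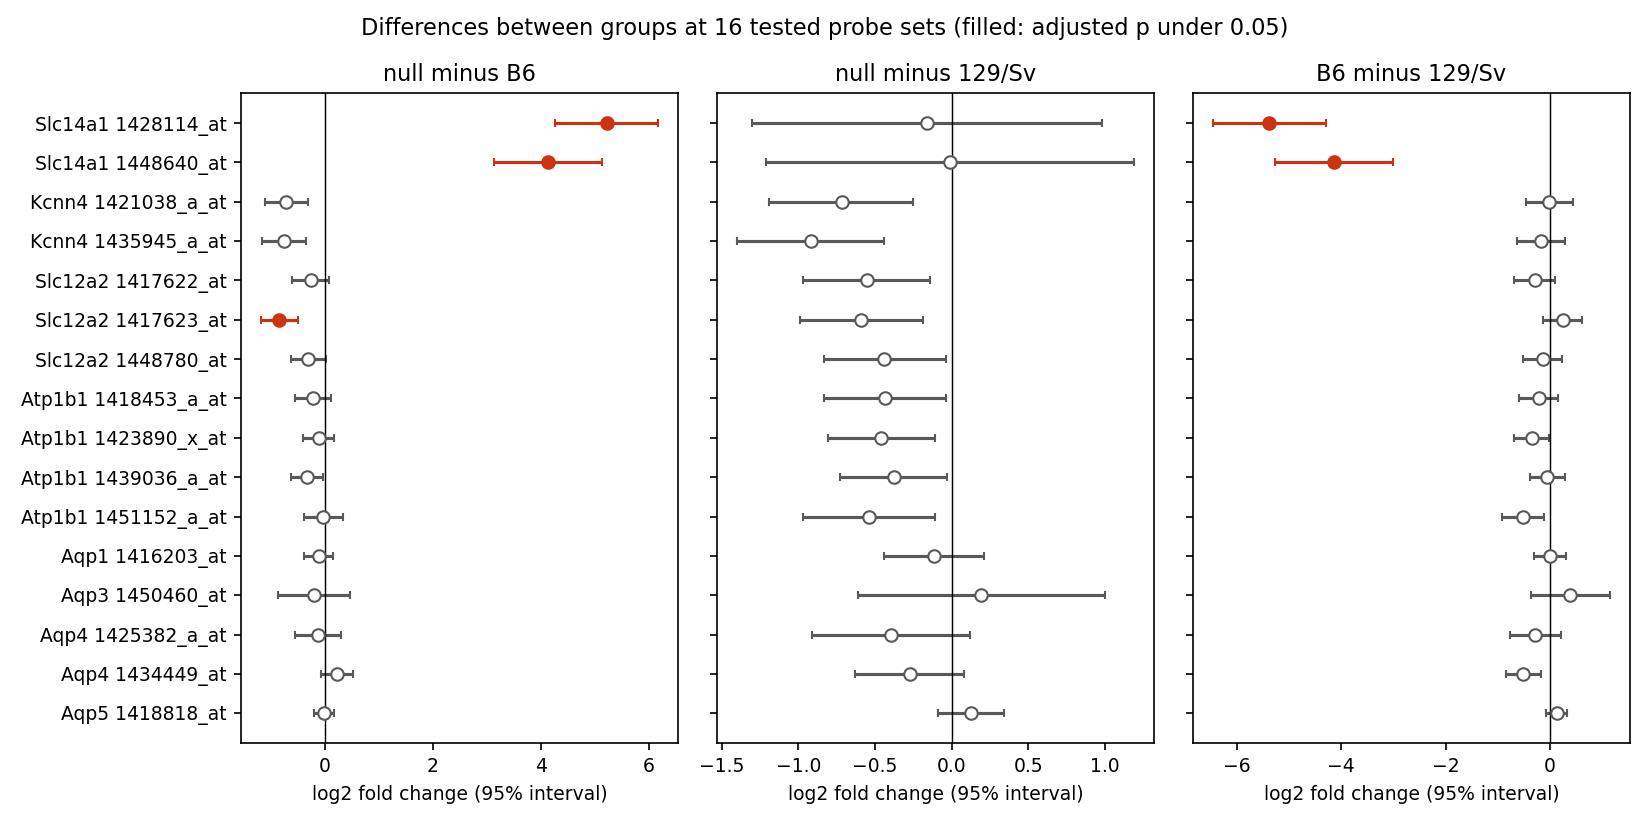
Log2 fold changes with 95% intervals from limma at the 16 tested probe sets for null against B6, null against 129/Sv and B6 against 129/Sv; filled points have an adjusted p under 0.05, and each panel has its own scale. Slc14a1 stands out in both panels that use B6, and 1417623_at of Slc12a2 is the only other filled point.

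Counted over the 16 tested probe sets, 2 were higher in null than in B6 glands (both Slc14a1), where 1.11% of all 12575 tested probe sets were higher, and 1 was lower (1417623_at of Slc12a2), where 1.07% were lower. This total of 3 was 5 without B6 array 1 and 2 without null array 2. Over all tested probe sets, 274 calls in either direction became 611 and 165 in the same fits. Against 129/Sv, limma called 0 of 16 higher and 0 lower, where 1.41% and 0.628% of all tested probe sets were called. At an unadjusted p under 0.05 the count was 9 of 16, where 12.0% of all tested probe sets were under it, and other settings called between 0 and 8. The 8 came with the replicate block, where calls over all tested probe sets went from 256 to 281. Against the mean of both strains 2 were higher (Slc14a1; 0.755% of all) and 2 lower (1417623_at of Slc12a2 and 1435945_a_at of Kcnn4; 0.469% of all). That total of 4 was 0 without null array 2, 1 without 129/Sv array 2, null array 1 or null array 3, and 2 without 129/Sv array 1. Over all tested probe sets, 154 calls became 65, 66, 58, 63 and 117 in the same order. The 2 Slc14a1 calls against the mean come from the low B6 signals in that mean. Null against 129/Sv was -0.16 and -0.01 at these probe sets, so they do not show null signals above both strains. Between the strains 0 were higher in B6 (2.92% of all) and 2 lower (both Slc14a1; 2.27% of all).

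No probe set of these genes passed against both strains in the same direction, where 0.0954% of all tested probe sets did. All 3 null arrays lay below all 6 wild-type arrays at 3 of 16 (both of Kcnn4 and 1417623_at of Slc12a2), where 1.96% of all did. All 4 B6 arrays lay below the other 5 at 3 of 16 (both of Slc14a1 and 1434449_at of Aqp4), where 3.54% of all did. The log2 fold change was negative at 13 of 16 probe sets against B6 and at 14 of 16 against 129/Sv, where 47.1% and 49.5% of all were negative. The median over the 16 was -0.158 against B6 and -0.417 against 129/Sv, and over all tested probe sets 0.016 and 0.003. Probe sets of a gene read the same transcripts, and both comparisons share the null arrays, so these counts are not independent. Many of the 16 also belong to a few genes whose signals varied together across the arrays. The genes were chosen with earlier results of these data known. Shares of all tested probe sets, here and beside the other counts over the 16, are thus descriptions. They do not test whether these genes stand out.

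Kcnn4, Slc12a2 and Atp1b1 varied together across the 9 arrays. Between probe sets of different genes among these 3, Pearson's r of the log2 signal ran from 0.396 to 0.947 (26 pairs, median 0.847), and between probe sets of the same gene from 0.722 to 0.979 (10 pairs, median 0.884). With Aqp5 their r ran from -0.593 to -0.193 (9 pairs), and with Slc14a1 from -0.712 to 0.448 (18 pairs). All pairs share the same 9 arrays, so these values are descriptions.

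**Figure D3:**
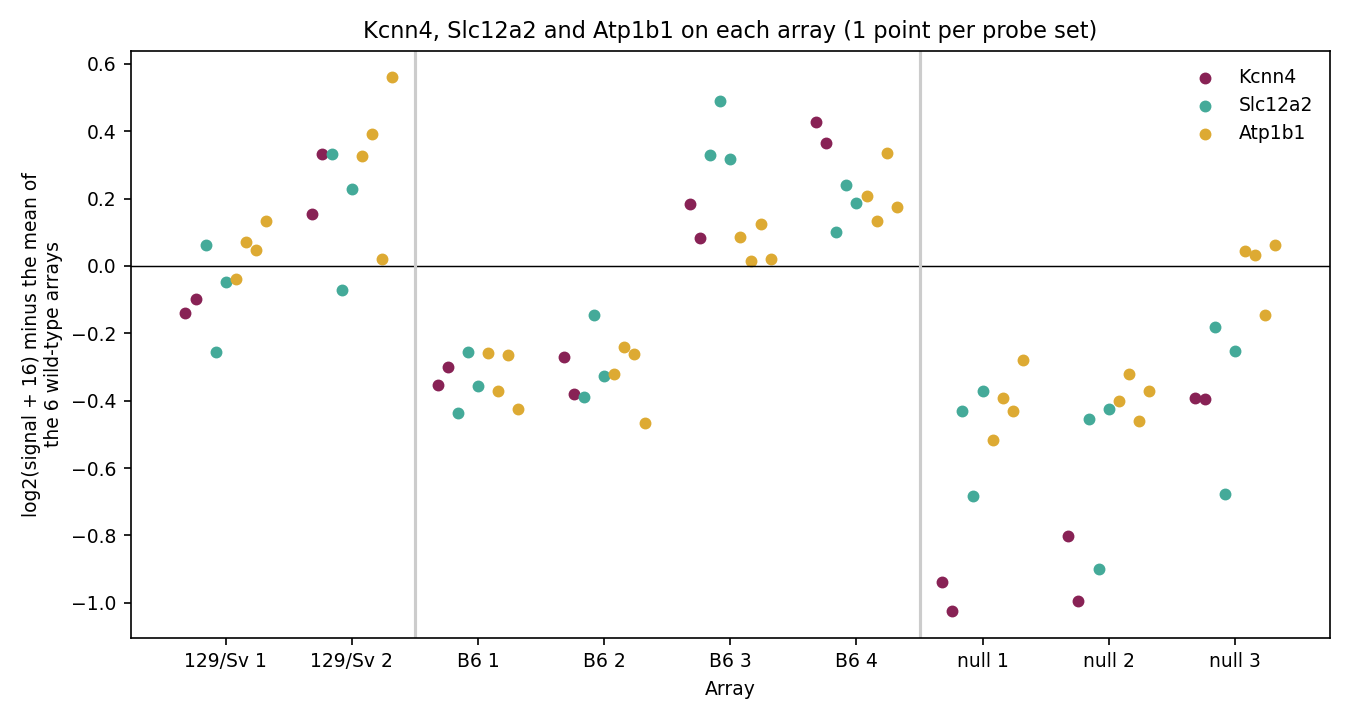
Log2(signal + 16) of the 9 tested probe sets of Kcnn4 (purple), Slc12a2 (green) and Atp1b1 (yellow) on each array, less that probe set's mean over the 6 wild-type arrays, with 1 point per probe set. All 9 points lie below 0 on B6 arrays 1 and 2 and on null arrays 1 and 2, and above 0 on B6 arrays 3 and 4.

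The B6 arrays split for these genes in a way that the labels do not give. Signals on B6 arrays 3 and 4 both exceeded those on arrays 1 and 2 at all 9 tested probe sets of Kcnn4, Slc12a2 and Atp1b1 and at 1448640_at of Slc14a1. That is 10 of 16, where 18.4% of all tested probe sets did so. Summed serous acinar markers were 528400 and 513300 on B6 arrays 1 and 2 and 547800 and 548700 on arrays 3 and 4. Array medians were 544.6, 524.6, 550.0 and 532.1 in the same order. Their part in the split was not tested.

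The choice of B6 arrays moved the null comparison for these genes. B6 arrays 3 and 4 were the higher ones at the tested probe sets of Kcnn4, Slc12a2 and Atp1b1. The direction of each shift there was thus fixed by the split. The p-values and counts of these fits are no separate evidence of lower null signals. With arrays 1 and 2 left out, the log2 fold change against B6 was -1.03 at 1435945_a_at of Kcnn4 (adjusted p = 0.00738) and -1.12 at 1417623_at of Slc12a2 (adjusted p = 0.000263). With arrays 3 and 4 left out they were -0.46 (adjusted p = 0.384) and -0.55 (adjusted p = 0.0531). At 1417622_at of Slc12a2 the value went from -0.57 (adjusted p = 0.0156) to 0.06 (adjusted p = 0.924), and at 1439036_a_at of Atp1b1 from -0.57 (adjusted p = 0.0104) to -0.08 (adjusted p = 0.875). Over the 16 probe sets, 8 passed in the first case, where 4.41% of all tested probe sets did, and 2, both Slc14a1, in the second, where 1.28% did. Slc14a1 kept its direction and its call both times, at 5.25 and 5.20 for 1428114_at, but its size at 1448640_at went from 3.10 to 5.16.

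**Figure D4:**
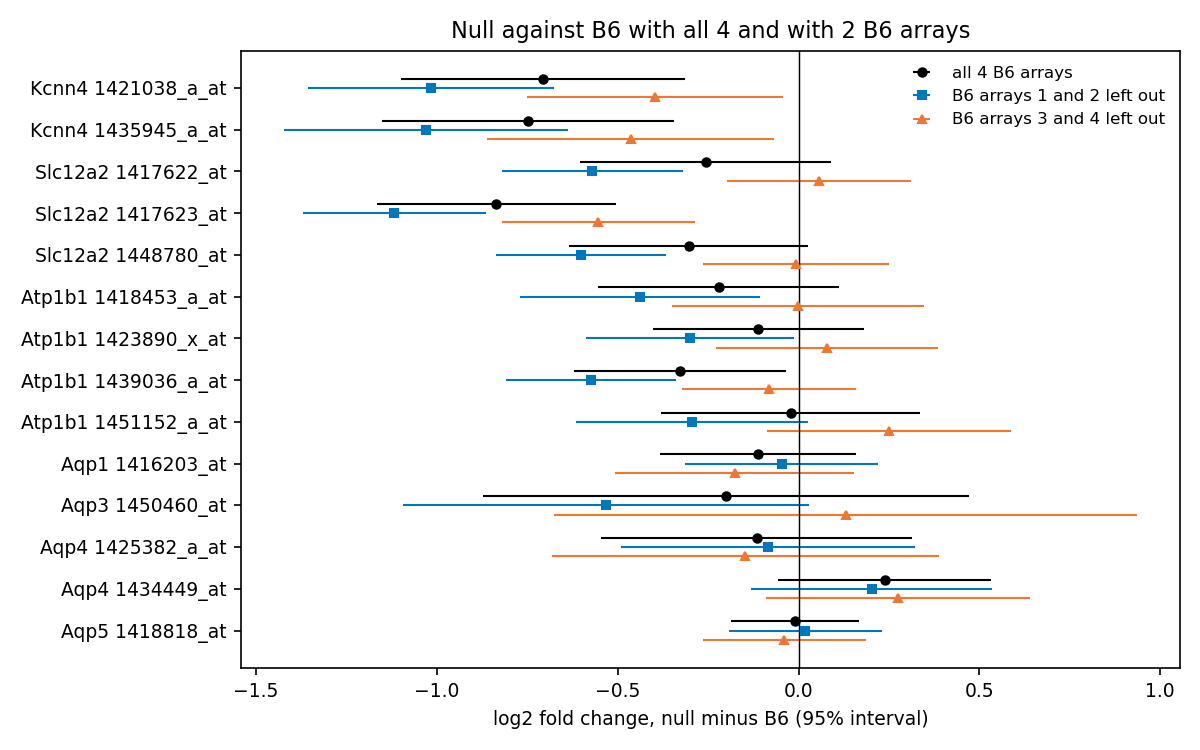
Log2 fold change of null against B6 with 95% intervals at 14 tested probe sets (Slc14a1 lies off this scale), with all 4 B6 arrays (black), without B6 arrays 1 and 2 (blue squares) and without B6 arrays 3 and 4 (orange triangles). Values for Kcnn4, Slc12a2 and Atp1b1 shift to the right without arrays 3 and 4, and 1417622_at of Slc12a2 moves from -0.57 to 0.06.

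Other genes of fluid secretion were read from 10 lists by role. Of 119 genes listed, 94 had a probe set and 54 were tested. The median log2 fold change over the 54 was 0.034 against B6, 0.057 against 129/Sv, 0.044 against the mean of both strains and -0.068 for B6 against 129/Sv, where all tested probe sets had 0.016, 0.003, 0.012 and -0.013. Against B6 2 of 54 were higher and 0 lower, where 1.11% and 1.07% of all tested probe sets were. Against 129/Sv 1 was higher and 0 lower (1.41% and 0.628% of all), and between the strains 0 were higher and 1 was lower in B6 (2.92% and 2.27% of all), shares near those of all probe sets. Against the mean limma called 0 (0.755% higher and 0.469% lower over all). An unadjusted p under 0.05 was found at 10 of 54, where 11.9% of all tested probe sets had it. Other settings called 0 to 4 listed genes. The most came without B6 arrays 1 and 2, where 386 of all 12304 tested probe sets were called.

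Among 7 tested kinases and scaffolds of transporters, 2 rose against B6. Ezr, which ties apical membrane proteins to actin, averaged 6116 ± 140.1 (SD, n = 3) on the null arrays, 4357 ± 296.7 (SD, n = 4) on the B6 arrays and 5257 ± 108.0 (SD, n = 2) on the 129/Sv arrays, with a log2 fold change of 0.49 (SE 0.0908, adjusted p = 0.01). Nedd4l, a ubiquitin ligase that removes epithelial sodium channels, had 4789 ± 146.0, 3387 ± 226.1 and 3762 ± 595.3 in the same order, with 0.50 (SE 0.106, adjusted p = 0.0244). Both null ranges lay above all wild-type arrays, yet neither passed against 129/Sv (adjusted p = 0.464 and 0.224). The Ezr call was lost without null array 1 or 2 (adjusted p = 0.0559 and 0.0589), and the Nedd4l call without B6 array 3 or 4 or any 1 null array.

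Among 9 tight junction genes, Cldn8, a claudin of tight epithelia, rose against 129/Sv from 3020 ± 468.9 (SD, n = 2) to 4504 ± 188.1 (SD, n = 3), by 0.58 (SE 0.138, adjusted p = 0.047), and that call was lost in 10 other settings. Among 11 genes of secretomotor receptors and calcium release, Itpr3, a calcium release channel of acinar cells, was lower in B6 (3324 ± 252.8, n = 4) than in 129/Sv (4954 ± 212.5, n = 2), by a log2 fold change of -0.58 (SE 0.114, adjusted p = 0.00769). That call was lost without either 129/Sv array (adjusted p = 0.0515 and 0.101).

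In the other lists 0 genes passed in any of the 4 comparisons, and the member with the highest signal is given for each. Fxyd3, a regulator of the sodium pump, had a log2 fold change against B6 of -0.19 (adjusted p = 0.394) among 8 tested genes. Lrrc26, an auxiliary subunit of large-conductance potassium channels, had -0.13 (adjusted p = 0.524) among 4. Clcn3, a chloride-proton exchanger, had -0.08 (adjusted p = 0.775) among 6. Arg2, an arginase and the 1 tested gene of urea handling besides Slc14a1, had 0.28 (adjusted p = 0.682). Elf5, an epithelial transcription factor, had 0.01 (adjusted p = 0.983) among 5 genes of duct absorption. Car2, a cytosolic carbonic anhydrase, had -0.21 against B6 and -0.71 against 129/Sv (adjusted p = 0.564 and 0.0624) among 3. Of 4 other aquaporins on the array (Aqp2, Aqp7, Aqp8 and Aqp9), all were below the median on every array.

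**Figure D5:**
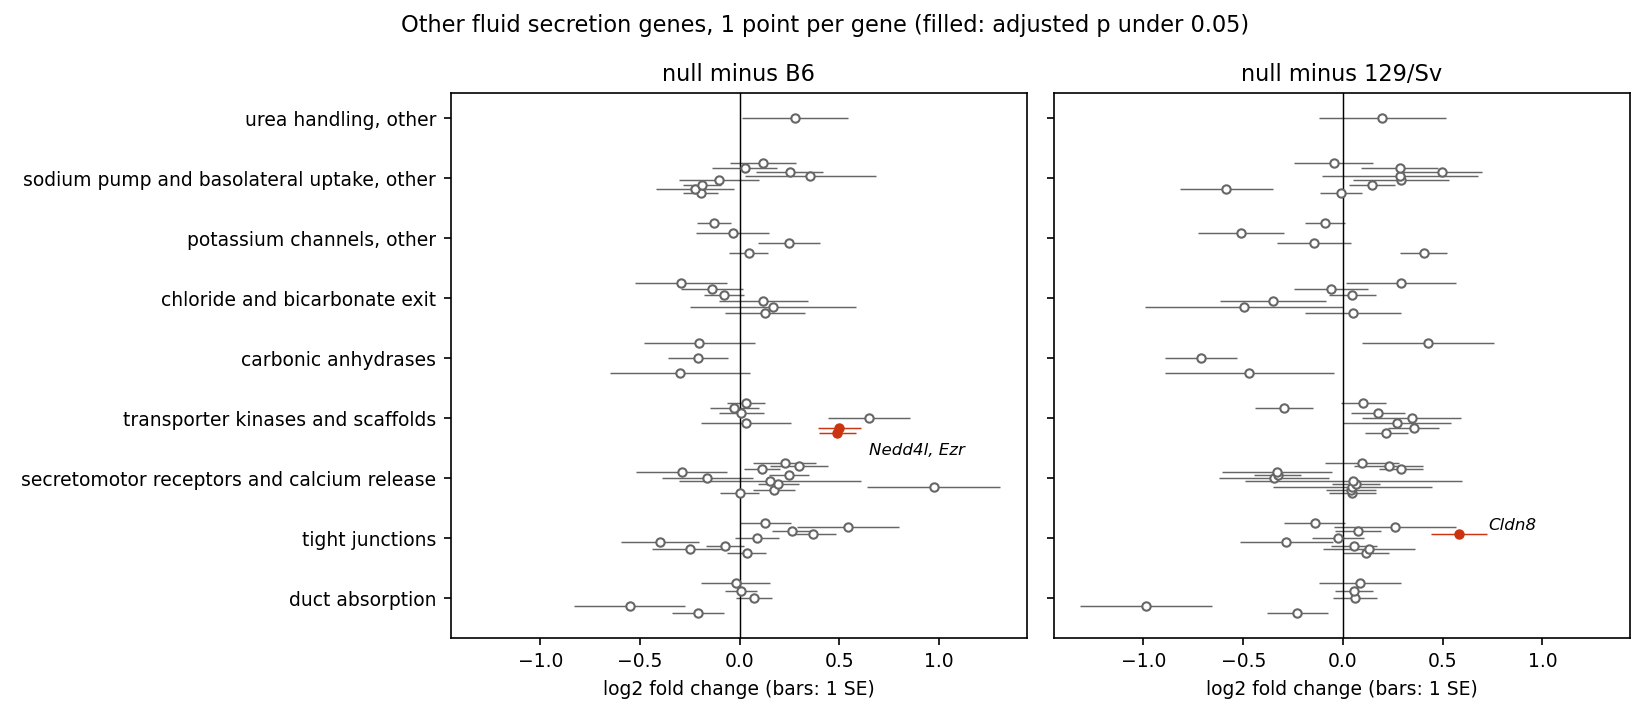
Log2 fold change (bars, 1 SE) of 54 further fluid secretion genes by list, 1 point per gene, for null against B6 and null against 129/Sv; filled points have an adjusted p under 0.05. Nedd4l and Ezr are filled against B6 and Cldn8 against 129/Sv, and the rest lie on both sides of 0.

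The probe sets most like the called ones were found by Pearson's r of the log2 signal over the 9 arrays, and these values are descriptions. For 1435945_a_at of Kcnn4 they were Dhrs7 (r = 0.964), Fam3c (0.958) and Eloc (0.951), and Fam3c had mean signals of 8210 in 129/Sv, 7956 in B6 and 4728 in null glands. For 1417623_at of Slc12a2 they were Srp9 (0.941), Med11 (0.939) and Sh3glb1 (0.935). For 1428114_at of Slc14a1 they were Abhd1 (0.98), Isoc1 (0.978) and Pglyrp1 (0.977), and for 1448640_at Serpina3n (0.982), Tcn2 (0.976) and Zfp704 (0.975). Low signals on the B6 arrays alone can give a high r with Slc14a1. Spearman's rho for these genes was lower, from 0.733 (Serpina3n) to 0.95 (Abhd1 and Tcn2). Pglyrp1, a secreted peptidoglycan recognition protein, had mean signals of 27660 in 129/Sv, 2874 in B6 and 23490 in null glands, low in B6 as Slc14a1 was. Isoc1 lies on chromosome 18, as Slc14a1 does, and the other 5 genes named with Slc14a1 lie on other chromosomes. Among the transport genes, Aqp4 and Slc12a2 lie on chromosome 18 as well. With 1428114_at and 1448640_at of Slc14a1, r was 0.836 and 0.758 at 1434449_at of Aqp4. It was 0.225 and 0.052 at 1425382_a_at of Aqp4, and ran from -0.712 to 0.157 for Slc12a2.

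Depth and tissue make-up were checked on all arrays. Array medians ran from 518.6 to 550.0, and Pearson correlations of log2 signals between arrays from 0.9307 to 0.9715. Serous acinar markers summed to 470300 to 556000 in 129/Sv, 513300 to 548700 in B6 and 478900 to 572600 in null glands. Of 8 tested, only 4 had a positive log2 fold change against B6. Among them 2, Dmbt1 and Lyz2, passed as higher in null glands, where 1.11% of all tested probe sets were higher. Against 129/Sv 0 of the 8 passed. Markers of ciliated and respiratory cells summed to 13220 to 14950, 11550 to 14000 and 18320 to 19230 in the same order. Of 6 tested, 4 passed as higher than in B6 (Dnah5, Lrrc23, Rsph1 and Tppp3), beside the same 1.11% over all. Against 129/Sv all 6 were positive and 0 passed. Against the mean of both strains 3 passed as higher (Dnah5, Lrrc23 and Tppp3), where 0.755% of all tested probe sets did. Of that list, Scgb1a1 was below the median on every array. The ciliated list was thus highest on the null arrays, where Kcnn4 and 1417623_at of Slc12a2 were lowest, and its part in those differences was not tested. Olfactory neuron markers summed to 1703 to 2561, 2439 to 9457 and 2083 to 5934.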

How the data were processed

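Total RNA of lateral nasal glands was hybridised as 1 biotin-labelled sample per Affymetrix array. The deposited values are linear intensity signals that the authors made with MAS5 (version not given in the sources used here), per the submitters' processing notes. Platform annotation named the probe sets: 20380 had 1 symbol, 691 several and 1555 none.

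Signals became log2(signal + 16), without further normalization. Probe sets above their array's median on at least 2 of 9 arrays (12575) were tested with limma 3.58.1 in R 4.3.3 (lmFit, contrasts.fit, eBayes with trend), 1 mean per group over all 9 arrays. Adjusted p-values are two-sided, with Benjamini-Hochberg adjustment over all 12575 and a threshold of 0.05. The script was checked on simulated data. Settings varied were scaling, pseudocount, filter, probe set choice, trend, weights, samples fitted and arrays left out. Levels were compared between probe sets only to pick the brightest of a gene or list. Precision is limited by the 9 arrays.

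The genes, lists and settings were chosen with earlier results of these data known. Named were all probe sets of the 9 genes, up to 4 passing genes per list (or else its brightest), the 3 probe sets most like each called one, and Cyp2g1. Marker genes, and genes below the median, were named where a sum or count needed them. RefSeq (GRCm38.p6) gave promoters, chromosomes and gene order.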

Additional observations from a re-analysis of the deposited data

How the results depend on the processing

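Both Slc14a1 probe sets kept their calls for null against B6 and B6 against 129/Sv in every setting that held them. Of 64 pairs of a probe set and a comparison, 33 passed in no setting, and 16 of these changed sign in at least 1. Calls against B6 numbered 3, and 2 to 5 with 1 array left out, 5 with array weights, 5 with the replicate block and 8 without B6 arrays 1 and 2. Over all tested probe sets they numbered 274, and 153 to 611 with 1 array left out. Array weights gave 490, the replicate block 221 and leaving out B6 arrays 1 and 2 gave 542. Calls against 129/Sv numbered 0, and 0 to 1 with 1 array left out, 1 with equal medians, with 1 probe set per gene or with array weights, 8 with the replicate block, 4 with only the groups compared, 5 without B6 arrays 1 and 2 and 4 without B6 arrays 3 and 4. Over all tested probe sets they numbered 256, and 127 to 326 with 1 array left out. The replicate block gave 281 and only the groups compared 356. Leaving out B6 arrays 1 and 2 gave 410, and leaving out 3 and 4 gave 264. Calls against the mean of both strains numbered 4, and 0 to 5 with 1 array left out, 2 with no filter or 1 probe set per gene, 0 without trend, 0 when the 6 wild-type arrays formed 1 group and 8 without B6 arrays 1 and 2. Over all tested probe sets they numbered 154, and 58 to 292 with 1 array left out. No filter gave 107, no trend 59, the wild-type arrays as 1 group 4 and leaving out B6 arrays 1 and 2 gave 386. Calls between the strains numbered 2, and 2 to 2 with 1 array left out, 1 with 1 probe set per gene, 5 with the replicate block and 4 without B6 arrays 3 and 4. Over all tested probe sets they numbered 653, and 341 to 863 with 1 array left out. The replicate block gave 558 and leaving out B6 arrays 3 and 4 gave 514. The cause of these changes was not tested. Reversed values were 0.018 for 1417622_at of Slc12a2 between the strains (adjusted p = 0.959, without B6 arrays 1 and 2), 0.057 for it against B6 (adjusted p = 0.924) and -0.037 for 1417623_at between the strains (adjusted p = 0.933), the last 2 without B6 arrays 3 and 4. Listed pathway genes called against B6 were 2, and 0 to 2 with 1 array left out, 1 without trend or with the replicate block and 0 without B6 arrays 3 and 4. Against 129/Sv they were 1, and 0 to 1 with 1 array left out, 2 with quantile normalization or array weights, 0 without trend and 3 without B6 arrays 1 and 2. Against the mean they were 0, and 0 to 3 with 1 array left out, 3 with the filter at the 75th percentile or array weights, 1 with a filter on the mean or 1 probe set per gene and 4 without B6 arrays 1 and 2. Between the strains they were 1, and 0 to 1 with 1 array left out, 2 with no filter, without trend or without B6 arrays 1 and 2. The totals over all tested probe sets given above come from the same fits. With the replicate block, 1435945_a_at of Kcnn4 gave -0.61 against B6 (adjusted p = 0.0159) and -1.09 against 129/Sv (adjusted p = 0.000874). The labels state nothing that arrays of the same number share besides that number. Over all tested probe sets, their deviations from the group means correlated between -0.075 and 0.0963. The deviations of the 2 129/Sv arrays mirror each other (r = -1), so these values are not independent. Whether the number pairs arrays at these genes was not tested.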
